A study of Mus musculus with 4 samples.

Results

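Of the 18373 genes in the table of primary mouse LSECs (liver sinusoidal endothelial cells), the 10 described here encode growth factors, activin subunits and cytokines that LSECs send to hepatocytes (HCs), together with a receptor and an inhibitor of these signals. They are *Hgf*, *Met*, *Hbegf*, *Fgf2*, *Igf1*, *Fst*, *Inhba*, *Inhbb*, *Il6* and *Lif*. They were taken by symbol, and Wnt and BMP genes were left out. All 10 were found and all 10 passed the filter on low counts. The cells came from livers of Balb/c mice at 8 weeks of age and were cultured for 24 h. They were then given an siRNA for 48 h and collected at day 3. The 2 groups were a control siRNA (NC, n = 2 libraries) and siRNA against the long noncoding RNA *Airn* (si*Airn*, n = 2 libraries). Both groups therefore went through isolation, culture and transfection, and no untransfected library was analysed here. The study's methods name several si*Airn* duplexes, and the titles of both si*Airn* libraries carry the name si*Airn*1, so which duplex each library received is not settled. The labels number the libraries as biological replicates and do not say whether these are separate mice or wells.

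LSECs line the liver sinusoids next to HCs and secrete factors that act on them, often called angiocrine factors. HGF binds the receptor tyrosine kinase MET and is a mitogen for HCs, while activins, dimers of inhibin beta chains, restrain HC growth and are bound by follistatin. IL-6 and LIF both signal through receptors that contain gp130, and HB-EGF, FGF2 and IGF-1 act through EGF, FGF and IGF receptors. *Airn* is transcribed from the opposite strand inside the imprinted gene *Igf2r*, and in cis it silences the paternal *Igf2r* allele in mouse tissues.

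The libraries held between 17308382 and 18371959 estimated counts. Counts of *Airn* itself were 7 and 3 for NC, against 11 and 9 for si*Airn*. The libraries labelled si*Airn* were thus not lower for their target, and the ratio of si*Airn* to NC was 1.97 (95% exact interval 0.880 to 4.71, covering counting error only). For this reason each direction below is given between libraries labelled si*Airn* and libraries labelled NC. Among cell type markers, all 13 endothelial and LSEC genes were detected, with *Pecam1* at 312 to 520 FPKM (fragments per kilobase, scaled to library size) and *Stab2* at 51.0 to 83.7 FPKM. In the study's methods, LSECs were taken from a density gradient and then incubated with magnetic beads against CD146, steps that should leave most other liver cells behind, while the labels name only the perfusion digestion. Markers of other liver cells were nevertheless present, with *Alb* of HCs at 253 to 468 FPKM and *Dcn* of stellate cells and fibroblasts at 146 to 274 FPKM. HC genes differed widely in level, with *Trf* at 40.0 to 67.3 FPKM and *Cyp2e1* at 0.59 to 2.57 FPKM. *Hnf4a* was at 0.19 to 0.32 FPKM and *Cps1* at 0.05 to 0.17 FPKM. By edgeR's quasi-likelihood test, which called 16.8% of all genes tested, 10 of 13 endothelial genes were lower and none higher in the libraries labelled si*Airn*, and their summed level was 7715 to 8313 CPM (counts scaled to library size) in NC and 5253 to 6110 CPM in si*Airn*. Of 12 Kupffer cell and macrophage genes tested, 7 were lower and none higher (248 to 316 CPM against 160 to 192 CPM). Of 14 stellate cell and fibroblast genes, 4 were higher and none lower (1399 to 1633 CPM against 1656 to 2082 CPM). Of 11 HC genes tested, 2 were higher and none lower (654 to 824 CPM against 915 to 1185 CPM), a share of 18.2% that is near that over all genes. Most of this HC sum was *Alb*, at 497 to 638 CPM in NC and 705 to 900 CPM in si*Airn*. In these 4 lists no gene passed an unadjusted p of 0.05 in the other direction, and DESeq2 called none there. No marker of these 4 lists was at 0 in all libraries. Lymphocyte, neutrophil and cholangiocyte lists had no gene called, with 1, 0 and 1 at an unadjusted p under 0.05 and none called by DESeq2, and neutrophil *Mpo* was at 0 in every library. In such bulk samples, fewer cells of a type and less RNA per cell cannot be told apart.

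The upstream sequences of 4 genes are shown because the first 2 were called in opposite directions. *Lif* is shown as the gene nearest to *Hgf* in profile over the libraries, among those of the 10 at 5 CPM or more on average. RefSeq on GRCm38.p6 gave a start site for 8 of the 10 genes. Each line gives the 250 bases before the start, 5′ to 3′ on the gene's strand, and capitals mark matches to the motifs searched. The windows are chr13:16011601-16011850 on the plus strand, chr1:119422249-119422498 on the minus strand, chr5:16553245-16553494 on the plus strand (the first of 2 *Hgf* starts) and chr11:4257318-4257567 on the plus strand.
Inhba: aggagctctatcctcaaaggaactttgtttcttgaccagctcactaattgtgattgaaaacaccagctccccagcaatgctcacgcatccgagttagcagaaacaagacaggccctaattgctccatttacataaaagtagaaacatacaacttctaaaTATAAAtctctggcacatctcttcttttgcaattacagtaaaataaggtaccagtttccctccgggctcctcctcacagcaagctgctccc
Inhbb: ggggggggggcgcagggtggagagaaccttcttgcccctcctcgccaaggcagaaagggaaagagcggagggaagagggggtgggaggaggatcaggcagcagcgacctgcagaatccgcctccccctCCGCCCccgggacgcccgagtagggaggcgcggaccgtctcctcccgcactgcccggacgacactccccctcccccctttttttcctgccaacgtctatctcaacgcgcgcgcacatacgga
Hgf: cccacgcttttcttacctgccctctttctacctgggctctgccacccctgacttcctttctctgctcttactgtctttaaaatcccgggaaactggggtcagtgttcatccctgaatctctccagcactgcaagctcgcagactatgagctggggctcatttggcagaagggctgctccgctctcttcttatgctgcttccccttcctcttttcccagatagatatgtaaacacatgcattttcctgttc
Lif: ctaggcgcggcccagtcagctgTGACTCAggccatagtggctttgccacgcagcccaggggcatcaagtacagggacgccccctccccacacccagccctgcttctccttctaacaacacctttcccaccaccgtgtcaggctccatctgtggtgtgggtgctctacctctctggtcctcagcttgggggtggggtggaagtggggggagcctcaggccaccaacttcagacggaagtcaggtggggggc
The 7 motifs were searched on both strands, where N stands for any base. The *Inhba* window held the TATA motif, spelled TATAAA, with its first base 91 bases before the start, as did 12.4% of 32851 promoters of the same length. The *Inhbb* window held the GC-box motif, spelled GGGCGG, on the opposite strand 122 bases before the start, a match found in 32.7% of promoters. The *Lif* window held the AP-1 motif, spelled TGACTCA, with its first base 228 bases before the start, found in 4.46% of promoters. Neither *Hgf* window held any of the 7 motifs. Base composition separated the activin genes, since *Inhbb* had 68% G and C with 21 CpG pairs and *Inhba* 43.2% with 3 CpG pairs, where the median promoter had 52.4% and 6. *Fgf2* and *Met* each held at least 1 GC-box, *Met* and *Il6* an AP-1 match, and *Il6* and *Igf1* matches to the CCAAT box and the NF-kB motif. The former was spelled CCAAT and was in 33.8% of promoters. The latter was spelled GGNNTTTCC and was in 4.93% of promoters. No window held the CRE motif (spelled TGACGTCA, in 1.55% of promoters). None held the STAT motif either (spelled TTCNNNGAA, in 7.02% of promoters).

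Between the groups, the 2 activin subunit genes changed in opposite directions, with *Inhba* higher and *Inhbb* lower in the libraries labelled si*Airn*. These were the 2 of the 10 genes called at an adjusted p under 0.05 by edgeR. Over all 13628 genes tested, 16.8% were called, 8.27% higher and 8.56% lower. By the study's own rule, a fold change over 1.4 with an unadjusted p under 0.05, 5 of the 10 passed (9.96% of all genes tested), and 4 of them, *Hgf*, *Fgf2*, *Inhba* and *Lif*, were higher (5.25%). The 2 groups did not overlap for 6 of the 10 genes (62.7% of all), 5 with higher values in si*Airn* (30.9%) and 1 with lower values (31.9%). The median log2 fold change was 0.45 over the 10 genes and 0.00126 over all genes tested. Fitted fold changes were above 0 for 8 of the 10 genes and for 50.1% of all, although those of *Met*, *Hbegf* and *Igf1* changed sign under at least 1 alternative. DESeq2 called 4 of the 10 (*Hgf*, *Inhba*, *Inhbb* and *Lif*), where it called 15.1% of the genes to which it gave an adjusted p. Permuting 2 against 2 libraries cannot give a two-sided exact p below 0.333, so no permutation test of single values was used.

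**Figure D1:**
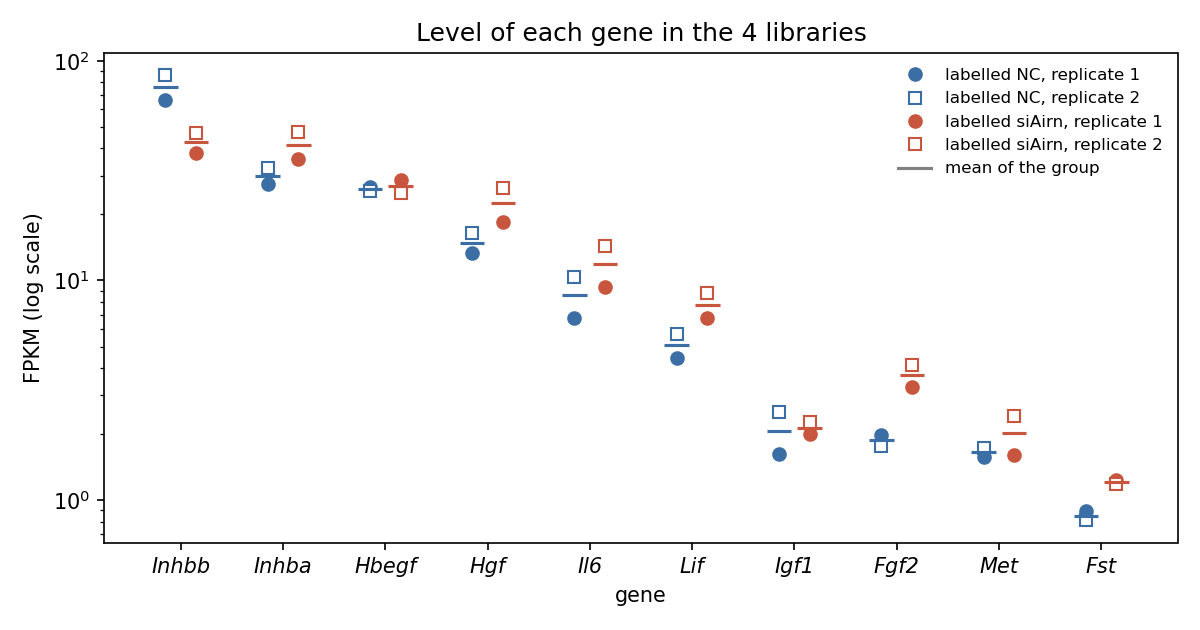
FPKM of each of the 10 genes (log axis) in the 2 libraries labelled NC (blue) and the 2 labelled siAirn (red), with the mean of each group as a line. The groups lie apart for Inhbb, Inhba, Hgf, Lif, Fgf2 and Fst and overlap for the other genes.

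Per length, the genes spanned from *Inhbb*, at 76.0 ± 14.0 FPKM in NC (SD, n = 2), to *Fst*, at 0.850 ± 0.0566 FPKM. *Inhbb* stood above 90.7% of the genes tested and *Fst* above 13.6%. Between them in NC came *Inhba* (30.0 FPKM), *Hbegf* (26.1), *Hgf* (14.9), *Il6* (8.60), *Lif* (5.08), *Igf1* (2.08), *Fgf2* (1.88) and *Met* (1.65). Only *Igf1* and *Fgf2* overlapped among neighbours in this order. In the libraries labelled si*Airn* the order began with *Inhbb* (42.5 FPKM) and *Inhba* (41.5), which overlapped, followed by *Hbegf* (26.8) and *Hgf* (22.5), which also overlapped. *Il6* (11.8), *Lif* (7.77), *Fgf2* (3.70), *Igf1* (2.14), *Met* (2.02) and *Fst* (1.21) came after them, and of these *Igf1* and *Met* overlapped. The levels rest on the transcript length used in making the table. Counts and FPKM together imply 662 to 707 bases for *Fgf2* and 1014 to 1023 bases for *Il6*, while their longest GENCODE M21 transcripts have 5973 and 2343 bases. For the other 8 genes the implied length was between 2248 and 6930 bases. That of *Inhba* differed by library, at 6254 and 5949 bases in NC and 6872 and 6355 bases in si*Airn*. Its longest M21 transcript has 6390 bases.

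**Figure D2:**
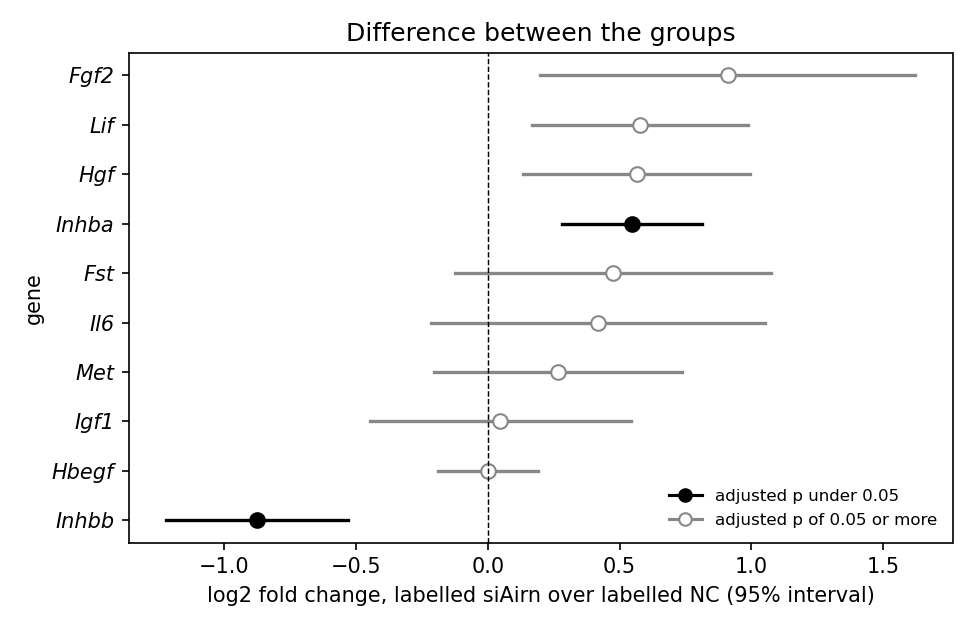
Log2 fold change of each gene (libraries labelled siAirn over labelled NC) from edgeR, with its 95% interval as a line. Filled points are the 2 genes with an adjusted p under 0.05, Inhba at 0.55 and Inhbb at -0.88, and the interval of Hbegf is centred on 0.

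*Hgf*, the HC mitogen, was at 13.3 and 16.5 FPKM in NC libraries, against 18.5 and 26.5 FPKM in libraries labelled si*Airn*. The counts behind these values were 600, 779, 850 and 1215. Both si*Airn* libraries lay above both NC libraries, and the second was 1.46 times the first on the CPM scale. The fitted fold was 1.48 (log2 fold change 0.57 ± 0.18 SE, 95% interval 0.13 to 1.00). *Hgf* did not pass the threshold in edgeR (adjusted p = 0.0752) but did in DESeq2 (adjusted p = 0.0217). Without the second si*Airn* library the log2 fold change was 0.27, and without the first it was 0.81. It was 0.42 without the first NC library and 0.72 without the second. Such fits leave a lone library in a group, which was assumed to vary as the other group does. Of its exonic bases, 6.74% lie under exons of *Gm43489* on the same strand. The summed stellate cell and HC marker levels were also highest in the second si*Airn* library, at 2082 and 1185 CPM, and their part in the *Hgf* values was not tested. *Alb* made up 900 CPM of that HC sum. The HC genes *Trf* (148 CPM), *Apob* (67.3), *Serpina1b* (28.4), *Apoa1* (25.8), *Ttr* (6.84), *Cyp2e1* (4.13), *Fgb* (2.26) and *Cps1* (0.904) were also highest there. Among the HC genes tested, the exceptions were *Hnf4a* and *Cyp3a11*. *Hnf4a* was lowest in that library (0.791 CPM), and *Cyp3a11* was highest in the second NC library (1.33 CPM).

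*Met*, the receptor of HGF, was low, at 1.57 and 1.73 FPKM in NC and 1.61 and 2.42 FPKM in si*Airn*. The groups overlapped, with the second si*Airn* library above the other 3. The log2 fold change was 0.27 ± 0.20 SE (95% interval -0.21 to 0.74, edgeR adjusted p = 0.388). It was -0.06 without the second si*Airn* library and 0.53 without the first. Per library, *Hgf* stood at 8.46 and 9.53 times *Met* in NC and at 11.5 and 10.9 times in si*Airn* on the FPKM scale.

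Among 19 tested genes of 23 listed for the HGF axis, 2 were higher and none was lower by edgeR, with a median log2 fold change of 0.21. At an unadjusted p under 0.05, 8 were higher and 2 lower, and DESeq2 called 3 higher and none lower. Over all 13628 genes tested by edgeR, 4631 were under that unadjusted p. The 2 called genes were *Cd44*, a hyaluronan receptor whose isoforms can act with MET, and *Cbl*, a ubiquitin ligase that targets activated MET. *Cd44* was at 30.1 and 32.3 FPKM in NC and 46.9 and 59.6 FPKM in si*Airn* (log2 fold change 0.73 ± 0.11 SE, adjusted p = 0.0116). *Cbl* was at 7.26 and 7.50 FPKM against 10.5 and 11.6 FPKM (0.69 ± 0.07 SE, adjusted p = 0.00516). For both genes every si*Airn* value lay above both NC values.

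The 5 named genes whose CPM profile over the 4 libraries was nearest to that of *Hgf* were *S1pr3*, *Serpina1d*, *Astn2*, *Mylk* and *Gucy1a1*. The measure was the Euclidean distance of centred log2 CPM among 10478 genes at 5 CPM or more on average, and these 5 lay between 0.0546 and 0.0670 away. *S1pr3*, for example, was at 7.80, 9.46, 11.0 and 16.2 FPKM in the same order of libraries. Of the 7 other genes described here with that level, *Lif* was the nearest (distance 0.116, rank 22) and *Inhbb* the farthest (1.42, rank 10371). With 4 libraries such nearness is a description only.

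*Hbegf*, a membrane-anchored ligand of the EGF receptor, was at 26.6 and 25.6 FPKM in NC and 28.6 and 25.1 FPKM in si*Airn*. The groups overlapped fully, with the NC pair inside the si*Airn* pair. On the CPM scale the means were 59.6 ± 1.44 and 59.6 ± 4.98 (SD, n = 2). The 95% interval of its log2 fold change, -0.19 to 0.19, was the narrowest of the 10 (edgeR adjusted p = 1.00).

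In the EGF family, 17 of 22 listed genes were tested, of which 5 were higher and 2 lower by edgeR (median log2 fold change 0.38). *Egfr*, the receptor of HB-EGF, was at 18.9 and 22.0 FPKM in NC and 27.3 and 37.0 FPKM in si*Airn*. Its log2 fold change was 0.58 ± 0.14 SE (adjusted p = 0.0363), and after correction for GC content and length it was 0.29 (adjusted p = 0.240). *Nrg1*, a ligand of the ERBB receptors, was higher, at 2.01 and 2.16 FPKM against 3.26 and 4.45 FPKM (0.66 ± 0.16 SE, adjusted p = 0.0323). *Adam10*, a metalloprotease that sheds EGF ligands, was lower (29.6 and 29.7 FPKM against 22.5 and 20.5, log2 fold change -0.50 ± 0.07 SE, adjusted p = 0.00854), while *Adam12*, of the same family, was higher (1.80 and 1.61 FPKM against 2.51 and 2.38, 0.48 ± 0.11 SE, adjusted p = 0.0299). The co-receptors did not pass the threshold, with log2 fold changes of -0.03 for *Erbb2* (adjusted p = 0.877) and 0.71 for *Erbb3* (adjusted p = 0.227).

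*Fgf2*, a heparin-binding growth factor, had few counts, 23 in each NC library, against 40 and 48 in si*Airn*. In FPKM it was 1.99 and 1.77 against 3.26 and 4.13, so that the groups lay apart. It had the largest fitted increase of the 10, a fold of 1.88 (log2 fold change 0.91 ± 0.30 SE, 95% interval 0.20 to 1.62), but did not pass the threshold (edgeR adjusted p = 0.0802). DESeq2 gave it no adjusted p. Of its exonic bases, 9.44% lie under exons of *Nudt6* on the opposite strand and 3.76% under *Gm43439* on the same strand, and the counting is not stated to use strand.

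The FGF axis had 7 genes higher and none lower by edgeR among 21 tested of 27 listed, with a median log2 fold change of 0.33. At an unadjusted p under 0.05, 9 were higher and 1 lower (4631 of all 13628 genes were under it). DESeq2 also called 7 higher and none lower. *Fgfr1* was at 17.5 and 19.3 FPKM in NC and 22.9 and 27.6 FPKM in si*Airn* (log2 fold change 0.43 ± 0.11 SE, adjusted p = 0.0394). *Fgfr2* was at 6.43 and 7.06 FPKM against 8.54 and 11.3 FPKM (0.51 ± 0.14 SE, adjusted p = 0.0465). With the GC content and length correction their log2 fold changes were 0.44 and 0.49, close to the uncorrected values, and fell just short of the threshold (adjusted p = 0.0536 and 0.0688), whereas *Fgfr3* had a log2 fold change of -0.14 in the uncorrected fit (adjusted p = 0.798). *Frs2*, the docking protein of FGF receptors, was higher, at 8.99 and 9.24 FPKM against 13.5 and 15.01 FPKM (0.58 ± 0.08 SE, adjusted p = 0.00795). *Spry1*, a feedback inhibitor of receptor tyrosine kinases, was at 19.0 and 22.1 FPKM against 28.6 and 29.4 FPKM (0.46 ± 0.09 SE, adjusted p = 0.0227).

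*Igf1* was at 1.63 and 2.52 FPKM in NC and at 2.01 and 2.27 FPKM in si*Airn*. The si*Airn* values lay between the NC values, and the NC libraries differed by 1.57 times on the CPM scale. Its log2 fold change of 0.05 ± 0.21 SE had a 95% interval of -0.45 to 0.54 (edgeR adjusted p = 0.898). The values do not exclude a difference within this interval.

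In the IGF axis, 12 of 19 listed genes were tested, and edgeR called 3 higher and 3 lower (median log2 fold change 0.14). The 3 lower genes were all IGF-binding proteins, which hold IGFs in the extracellular space. *Igfbp3* was at 17.7 and 16.9 FPKM in NC and 6.47 and 6.49 FPKM in si*Airn* (log2 fold change -1.46 ± 0.09 SE, adjusted p = 0.00235), a fold of 0.363. *Igfbp4* was at 125 and 126 FPKM against 89.2 and 76.0 FPKM (-0.65 ± 0.08 SE, adjusted p = 0.00775). *Igfbp7* was at 1351 and 1543 FPKM against 901 and 951 FPKM (-0.69 ± 0.08 SE, adjusted p = 0.00667). *Stc1*, which encodes a secreted inhibitor of the IGFBP protease PAPP-A, was higher, with counts of 94 and 83 against 141 and 137 (0.63 ± 0.17 SE, adjusted p = 0.0468). It did not pass in DESeq2 (0.63, adjusted p = 0.178) or after the GC content and length correction (0.51, edgeR adjusted p = 0.0994). Of the receptors, *Igf2r* was higher, with estimated counts of 592 and 630 against 757 and 894 (0.41 ± 0.10 SE, adjusted p = 0.0379), and lost this call after the GC content and length correction (0.23, adjusted p = 0.174). *Igf1r* (0.29, adjusted p = 0.0606) and *Insr* (0.08, adjusted p = 0.422) did not pass.

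*Inhba*, which encodes the beta A chain of activin A, was at 27.4 and 32.5 FPKM in NC and at 35.7 and 47.4 FPKM in si*Airn*. Its counts were 2969, 3550, 4362 and 5281. Both si*Airn* values lay above both NC values, and the fold was 1.46 (log2 fold change 0.55 ± 0.11 SE, 95% interval 0.28 to 0.81, edgeR adjusted p = 0.0227). This call was lost after correction for GC content and length (0.31, edgeR adjusted p = 0.129). It was also lost in limma on log2(FPKM + 1) (0.45, adjusted p = 0.116). *Inhbb*, which encodes the beta B chain of activin B, had counts of 4734 and 6524 in NC libraries, against 2802 and 3398 in si*Airn* libraries. In FPKM it was 66.1 and 85.9 against 38.2 and 46.8, so that every si*Airn* value lay below both NC values. Its fold was 0.545 (log2 fold change -0.88 ± 0.15 SE, 95% interval -1.22 to -0.53, edgeR adjusted p = 0.0133).

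The balance of the 2 subunit transcripts combines the 2 genes called in opposite directions, so that it restates those calls. It is no separate result, and it was not corrected for GC content or length. The *Inhba* to *Inhbb* ratio was 0.415 and 0.378 in NC libraries, against 0.935 and 1.01 in libraries labelled si*Airn*, on the FPKM scale. On the count scale it was 0.627 and 0.544 against 1.56 and 1.55. *Inhba* made up 29.3% and 27.4% of the summed FPKM of both genes in NC and 48.3% and 50.3% in si*Airn*. Within a group these shares lay within 2 percentage points, although *Inhbb* itself differed between replicates by 1.31 times in NC and 1.24 times in si*Airn* on the CPM scale. The sum of both transcripts was 93.5 and 118 FPKM in NC and 73.9 and 94.2 FPKM in si*Airn*, which overlapped.

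**Figure D3:**
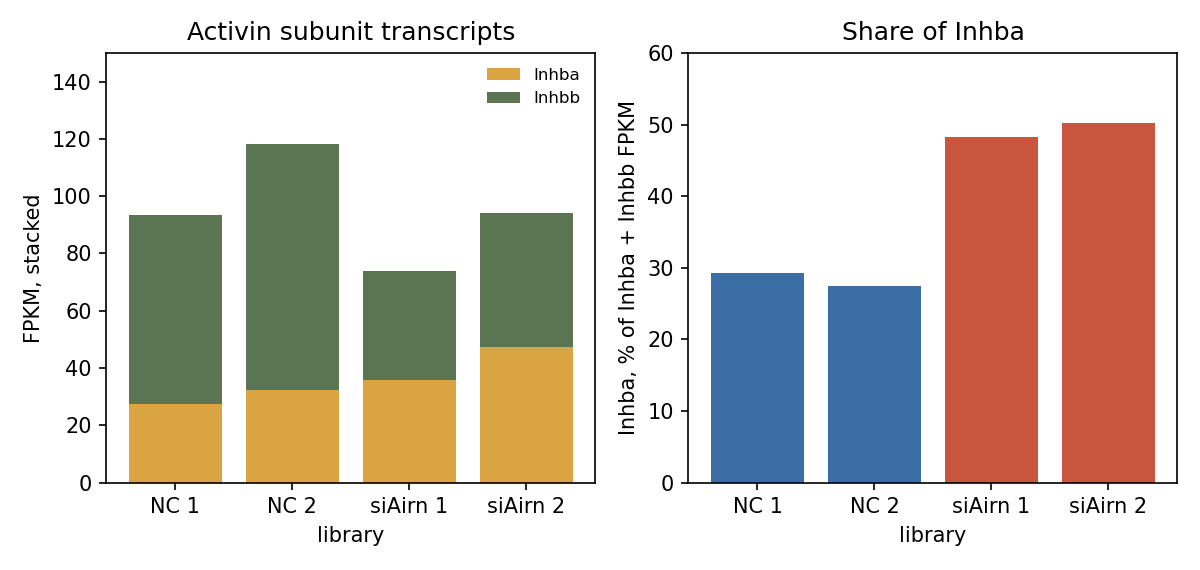
Left, FPKM of Inhba and Inhbb stacked for each library, from 0. Right, Inhba as a percentage of their sum, at 29.3% and 27.4% in NC libraries, against 48.3% and 50.3% in libraries labelled siAirn.

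Without the first NC library the log2 fold change was 0.46 for *Inhba* (edgeR adjusted p = 0.141) and -1.06 for *Inhbb* (adjusted p = 0.0607), and without the second it was 0.64 (adjusted p = 0.119) and -0.67 (adjusted p = 0.110). In these fits edgeR called only 40 and 0 genes in all (3506 and 3106 at an unadjusted p under 0.05), so that the lost calls say little about the activin genes. Without the first si*Airn* library the log2 fold change was 0.69 for *Inhba* and -0.73 for *Inhbb*, and without the second it was 0.38 and -1.04. Across 12948 tested genes with a GENCODE M21 transcript, log2 fold changes ran with GC content (Spearman's rho -0.33) and with length (0.36), as a description in which genes share libraries. The longest *Inhbb* transcript has 60.9% G and C and that of *Inhba* 41.4%. After correction for both properties, 1 of the 10 genes was called, where 8.2% of genes were. This was *Inhbb* (log2 fold change -0.79, adjusted p = 0.0273), while *Inhba* was at 0.31 (adjusted p = 0.129).

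*Fst*, which encodes follistatin, the secreted protein that binds activins, had the lowest level of the 10 in FPKM, though not in counts, where *Fgf2* was lower. The *Fst* counts were 38 and 37 in NC, against 55 and 51 in si*Airn*. In FPKM it was 0.890 and 0.810 against 1.23 and 1.19, so that the groups lay apart while the replicates were close. The log2 fold change was 0.47 ± 0.25 SE (95% interval -0.12 to 1.07, edgeR adjusted p = 0.234). DESeq2 gave it no adjusted p. The summed activin subunit FPKM was 105 and 146 times that of *Fst* in NC and 60.1 and 79.2 times in si*Airn*.

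Of 19 listed activin axis genes 15 were tested, and *Inhba* and *Inhbb* were the only 2 called by edgeR (median log2 fold change 0.13). DESeq2 also called 1 higher and 1 lower. The receptors did not pass the threshold. The type II receptor *Acvr2a* was at 6.72 and 5.62 FPKM in NC and 7.46 and 8.52 FPKM in si*Airn* (log2 fold change 0.34 ± 0.12 SE, adjusted p = 0.0880), and *Acvr2b* had a log2 fold change of 0.07 (adjusted p = 0.798). The type I receptor *Acvr1b* had -0.19 (adjusted p = 0.193).

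*Il6*, a cytokine that activates STAT3 in HCs, was at 6.78 and 10.4 FPKM in NC and at 9.33 and 14.4 FPKM in si*Airn*. The groups overlapped, and in both of them the second library was more than 1.5 times the first on the CPM scale (1.54 and 1.56). The log2 fold change was 0.42 ± 0.27 SE (95% interval -0.22 to 1.05, edgeR adjusted p = 0.315). It ranged from 0.06 without the second si*Airn* library and 0.14 without the first NC library to 0.70 without the first si*Airn* library and 0.76 without the second NC library.

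*Lif*, a related cytokine that shares gp130, was at 4.45 and 5.71 FPKM in NC and at 6.74 and 8.80 FPKM in si*Airn*. Its counts of 301, 415, 470 and 611 placed both si*Airn* libraries above both NC libraries. The fold was 1.49 (log2 fold change 0.58 ± 0.17 SE, 95% interval 0.17 to 0.99). As with *Hgf*, edgeR gave an adjusted p of 0.0633 and DESeq2 one of 0.0391. Without the second si*Airn* library the log2 fold change was 0.36, and without the first it was 0.77. It was 0.40 without the first NC library and 0.78 without the second. The *Lif* to *Il6* ratio in FPKM was 0.656 and 0.548 in NC and 0.722 and 0.613 in si*Airn*, which overlapped.

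The IL-6 and LIF (gp130) list had 19 tested genes of 22, with 2 lower and none higher by edgeR and a median log2 fold change of -0.03. At an unadjusted p under 0.05, 3 were higher and 6 lower (4631 of all 13628 genes were under it). DESeq2 called 1 higher and 1 lower. The 2 called genes were *Il11ra1*, the IL-11 receptor (22.4 and 23.4 FPKM against 18.5 and 18.9, log2 fold change -0.32 ± 0.08 SE, adjusted p = 0.0323), and *Jak1*, a kinase bound to gp130 (122 and 122 FPKM against 113 and 107, -0.25 ± 0.06 SE, adjusted p = 0.0333). *Il6st*, which encodes gp130, was at 86.4 and 87.1 FPKM in NC and 88.3 and 95.7 FPKM in si*Airn* (0.05 ± 0.07 SE, adjusted p = 0.660). Its partner receptors also did not pass, with log2 fold changes of 0.43 for *Il6ra* (adjusted p = 0.114), 0.23 for *Lifr* (adjusted p = 0.0909) and 0.32 for *Osmr* (adjusted p = 0.222).

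**Figure D4:**
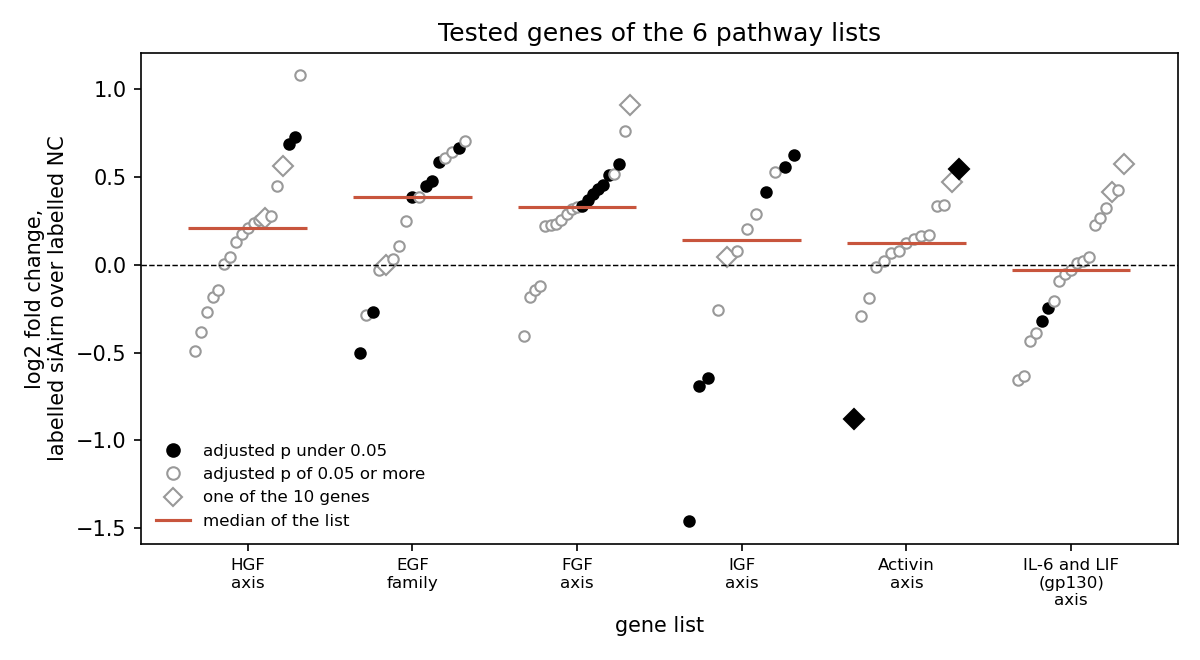
Log2 fold change (libraries labelled siAirn over labelled NC) of every tested gene of the 6 pathway lists, sorted within each list, with the list's median as a line. Filled points have an adjusted p under 0.05, diamonds are the 10 genes described here, and Igfbp3 is the lowest point at -1.46.

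Over the 6 lists together 26 of 103 tested genes were called (25.2%, where 16.8% of all genes tested were), 18 higher and 8 lower. Without the 10 genes it was 24 of 93 (25.8%). By list, the share called was 50% for the IGF axis, 41.2% for the EGF family and 33.3% for the FGF axis. It was 13.3% for the activin axis and 10.5% each for the HGF axis and the gp130 list, below the 16.8% over all genes. The lists held 12 to 21 tested genes each, and differences between these shares were not tested. The median log2 fold change over the 103 genes was 0.21. Once GC content and length were corrected for, 15 of 102 genes of the lists were called, where 8.2% of all genes tested were. Of those named above, *Inhba*, *Egfr*, *Nrg1*, *Adam12*, *Fgfr1*, *Fgfr2*, *Igf2r*, *Stc1* and *Il11ra1* no longer passed (edgeR adjusted p between 0.0536 and 0.240). The size of the shift differed among them. Log2 fold changes after and before the correction were 0.44 and 0.43 for *Fgfr1* and 0.49 and 0.51 for *Fgfr2*, which hardly moved. They were 0.51 and 0.63 for *Stc1*, 0.48 and 0.66 for *Nrg1*, and 0.31 and 0.48 for *Adam12*. For *Il11ra1* they were -0.21 and -0.32, for *Inhba* 0.31 and 0.55, for *Egfr* 0.29 and 0.58, and for *Igf2r* 0.23 and 0.41. In DESeq2, *Stc1* (adjusted p = 0.178), *Adam12* (0.103) and *Il11ra1* (0.117) did not pass either. Their log2 fold changes there, 0.63, 0.48 and -0.32, were about as large as in edgeR. Without the second NC library edgeR called none of the lists' genes (37 at an unadjusted p under 0.05), and without the first it called 2. On the CPM scale, 7 of the 10 genes were higher in the second library than in the first in both NC and si*Airn*. *Hbegf*, *Fgf2* and *Fst* were the exceptions.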

How the data were processed

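Total RNA of 4 LSEC libraries was read as single ends of 50 bases on a BGISEQ-500. The authors deposited estimated counts without normalization, and the other values they deposited were read as FPKM, since the header names no unit. The submitters' processing notes name BWA, Bowtie2 and RSEM without versions and the human build hg19, although the samples are mouse, so no coordinates of the authors' build are used. The 4 columns of group means were not used. Counts were rounded and tested in R 4.3.3 with edgeR 4.0.16 (TMM, filterByExpr, glmQLFit with robust off, glmQLFTest, no covariate), with Benjamini-Hochberg adjustment over 13628 genes. CPM values carry the TMM factors. SE values are those implied by the F statistic. With n = 2, p-values measure the spread between these libraries, which may be technical. Libraries of a group differed beyond counting noise (chi-square per degree of freedom 6.15 and 8.15), so none was counted as a duplicate. The depth gives a floor of 3 counts, or 0.166 to 0.175 CPM. DESeq2 1.42.0, limma 3.58.1 on log2(FPKM + pseudocount), other scalings, filters, a replicate block, a GC content and length correction (natural splines) and leaving out each library were alternatives. Scripts were tested on simulated data. The 10 genes and the gene lists were chosen with earlier results of these data known. Named genes were the 10, their main receptors, *Airn*, the 5 nearest to *Hgf*, and up to 4 genes per list with the largest change among those called at a mean of at least 1 CPM.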

Additional observations from a re-analysis of the deposited data

How the results depend on the processing

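With 2 libraries a group the number of calls depended strongly on the test. DESeq2 called 4 of the 10 genes, edgeR's likelihood-ratio test 5 and the study's rule 5, and limma on log2(FPKM + 0.1) called 0. In that limma fit 6 of the 10 had an unadjusted p under 0.05, as did 3835 of all 11667 genes. The likelihood-ratio test called 40 genes of the 6 lists and 3140 of all 13628. Limma, which tested 91 list genes and 11667 in all, called 16 and 1242 on log2(FPKM + 1) and 1 and 7 on log2(FPKM + 0.1). The study's rule passed 1358 of all genes, and an adjusted p under 0.05 with a fold change over 1.4 passed 894. With the GC content and length correction 1 of the 10, 15 of 102 list genes and 1062 of 12948 in all were called. Leaving out 1 library gave 0 to 6 of the 10, 0 to 38 of the lists and 0 to 2410 of all genes. The count of 0 over all genes came from edgeR without NC replicate 2 (3106 at an unadjusted p under 0.05), where 4 of the 10 and 37 of the lists were under that p. Without NC replicate 1 edgeR called 0 of the 10 (2 under that p), 2 of the lists and 40 in all. A lone library was assumed to vary as the other group does. The cause of these shifts was not tested.

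The labels do not say that a replicate number marks a shared mouse or day. Deviations of same-numbered libraries had a correlation of 0.27 over genes, and the pairing is a hint from the data only. With the replicate block 6 of the 10 genes were called (*Hgf*, *Fgf2*, *Inhba*, *Inhbb*, *Il6* and *Lif*), 58 of the lists and 4841 in all. With the block and the GC content and length correction these were 5, 56 and 4337.

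*Inhbb* was called in 9 of the 10 alternatives that kept all libraries and *Inhba* in 7, *Hgf* and *Lif* in 4 each. For *Hgf* and *Lif* these were DESeq2, the likelihood-ratio test and both fits with the replicate block. Over these alternatives, log2 fold changes ranged from -0.89 to -0.78 for *Inhbb*, 0.30 to 0.55 for *Inhba*, 0.45 to 0.58 for *Hgf* and 0.53 to 0.62 for *Lif*. In the same order, adjusted p ran from 1.2e-44 to 0.0619, 3.2e-08 to 0.149, 3.9e-10 to 0.160 and 1.9e-10 to 0.106. Each smallest value came from the GC content and length correction with the replicate block, a pairing that the labels do not give. With 2 libraries a group, such small values should not be read as strong evidence. Signs turned for the following genes. *Hbegf*, at -4.7e-05, became 0.00097 (DESeq2), 0.0028 (at least 10 counts in every library), 0.036 and 0.037 (limma with pseudocounts 1 and 0.1), 0.054 and 0.052 (GC content and length correction without and with the block), and ran from -0.089 to 0.082 on leaving out a library. *Erbb2* became 0.0076 and 0.0082 (limma), 0.0022 and 0.00033 (the corrections), and -0.14 to 0.077 on leaving out a library. That range was -0.24 to 0.41 for *Igf1*, -0.056 to 0.53 for *Met*, -0.11 to 0.22 for *Acvr2b* and -0.021 to 0.11 for *Il6st*. The corrections without and with the block turned *Igf1* to -0.26 and -0.24, *Insr* to -0.17 in both, *Il6st* to -0.19 in both and *Lifr* to -0.059 and -0.060. On leaving out a library, *Igf1* turned without NC replicate 1 and without si*Airn* replicate 2, *Met* and *Il6st* without si*Airn* replicate 2 and *Acvr2b* without si*Airn* replicate 1. Of 472 values of the 34 other named genes, 346 kept their direction and side of the threshold, 79 fell below it, 33 passed it and 14 turned.

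Depth limits *Fgf2*, *Fst* and *Airn*, which rest on few counts in each library.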
